A study of Mus musculus with 25 samples.

Results

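Glul, Oat, Slc1a2, Axin2, Lgr5, Rhbg and Tbx3 mark hepatocytes around the central vein, and Sds, Hal and Gls2 mark hepatocytes around the portal tract. These 10 zonation genes were taken by symbol from the hepatocyte count table, and all 10 were found among its 18668 genes. Blood crosses the liver lobule from the portal tract to the central vein, and hepatocytes along the way divide the metabolic work between them. Cells at the portal side break down amino acids and glutamine and make urea, while a narrow pericentral rim catches the remaining ammonia as glutamine. Wnt ligands from central vein endothelium, amplified by R-spondin, hold β-catenin signalling high in that rim, and Glul, Oat, Slc1a2, Axin2, Lgr5, Rhbg and Tbx3 are known to depend on it.

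The series held bulk RNA sequencing of sorted mouse liver cells in 25 libraries, of which 13 were hepatocytes in 5 groups. IL-6 STAT3KO hepatocytes (n = 3) came from Stat3-floxed mice given AAV-TBG-Cre 2 weeks and an IL-6 plasmid 1 week before. IL-6 hepatocytes (n = 3) were taken from wild-type mice that had the IL-6 plasmid delivered through the tail vein by hydrodynamic injection 1 week earlier. DDC STAT3KO hepatocytes (n = 3) came from Stat3-floxed mice given AAV-TBG-Cre 2 weeks before and fed the bile duct toxin DDC for 1 week. DDC hepatocytes (n = 2) came from Stat3-floxed mice on the same diet, with AAV-TBG-GFP in place of AAV-TBG-Cre. GFP hepatocytes (n = 2) were taken from wild-type mice that had a GFP plasmid delivered likewise 1 week earlier, and are the control of both arms here. All mice were of the C57BL/6J 129SV background. AAV-TBG-Cre carries Cre recombinase under the thyroxine-binding globulin promoter, which is active in hepatocytes, so the deletion is aimed at hepatocytes and leaves Stat3 in other liver cells. DDC and GFP hepatocytes differed in diet, Stat3 allele, virus and plasmid together, and so did IL-6 and DDC hepatocytes. IL-6 STAT3KO and IL-6 hepatocytes differed in allele and virus together, so that in each pair these cannot be told apart. The labels do not say that replicates were separate animals, and the p-values measure the spread between these libraries. In bulk RNA, fewer cells of a zone and less RNA per cell cannot be told apart.

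The hepatocyte libraries held 13625040 to 18428988 counts, and libraries of a group correlated at 0.902 to 0.984 across genes. All 7 measured hepatocyte markers had counts in every library. Stat3 measured 116, 96.0 and 116 CPM (counts relative to the scaled library size) in IL-6 STAT3KO libraries, against 340, 351 and 424 CPM in IL-6 libraries. Its direct target Socs3 averaged 5.06 ± 1.43 CPM in IL-6 STAT3KO libraries and 259 ± 39.3 CPM in IL-6 libraries (SD, n = 3 each). GFP libraries held 109 and 98.8 CPM of Stat3 and averaged 11.8 CPM of Socs3. Stat3 in IL-6 STAT3KO libraries was thus near its GFP level. The part of the deletion in its difference from IL-6 libraries was not tested. Under DDC, Stat3 averaged 68.5 ± 16.5 CPM in DDC STAT3KO libraries (SD, n = 3) and 131 ± 26.9 CPM in DDC libraries (SD, n = 2). IL-6 replicate 3 stood apart from the other IL-6 libraries. It held 351 CPM of Il6, against 4.89 and 3.2 CPM in IL-6 replicates 1 and 2, and 486 CPM of EGFP, against 9.23 and 5.73 CPM there. Its share of counts from Alb, the albumin gene, was 0.557%, against 6.45% and 2.99% there. The GFP libraries held 2.18 and 2.41 CPM of EGFP after injection of a GFP plasmid, and the sources used here do not say whether it carries the EGFP sequence that was counted. The DDC libraries, which had the GFP virus, held 1185 and 1228 CPM. Il6 measured 0.743, 0.559 and 1.05 CPM in IL-6 STAT3KO libraries, lower than in all IL-6 libraries. The comparisons of the zonation genes with the IL-6 group are therefore also given without that library where its removal changes a call. Mitochondrial genes took 4.16 to 5.92% of counts in IL-6 STAT3KO, 2.05 to 2.76% in IL-6, 2.03 to 5.38% in DDC STAT3KO, 5.21 and 5.48% in DDC, and 5.56 and 5.6% in GFP libraries. This share was lower in every IL-6 library than in every IL-6 STAT3KO and GFP library, and the part of these features in the results was not tested.

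The genes lie on GRCm38 at chr1:153899944-153909723 (Glul), chr7:132557478-132576398 (Oat), chr2:102658659-102790784 (Slc1a2), chr11:108920349-108950783 (Axin2), chr10:115450311-115587780 (Lgr5), chr3:88242874-88254709 (Rhbg) and chr5:119670669-119684724 (Tbx3) for the pericentral genes. The periportal genes lie at chr5:120476526-120483932 (Sds), chr10:93488768-93519304 (Hal) and chr10:128194457-128210004 (Gls2), and all 10 are protein-coding. Promoter sequence was at hand for 5 of the 10 genes, Glul, Oat, Slc1a2, Axin2 and Hal, from RefSeq on GRCm38.p6. Each window runs from 250 bases before to 50 after the start site. Glul, Oat and Slc1a2 are printed because they are the pericentral enzymes and transporter with the largest differences, and Hal as a periportal counterpart. Capitals mark CTTTGA on either strand, the core letters of the TCF/LEF motif through which β-catenin acts. The windows are chr1:153899679-153899978 (plus strand) for Glul, chr7:132576349-132576648 (minus strand) for Oat, chr2:102706188-102706487 (plus strand) for Slc1a2 and chr10:93488518-93488817 (plus strand) for Hal.
Glul: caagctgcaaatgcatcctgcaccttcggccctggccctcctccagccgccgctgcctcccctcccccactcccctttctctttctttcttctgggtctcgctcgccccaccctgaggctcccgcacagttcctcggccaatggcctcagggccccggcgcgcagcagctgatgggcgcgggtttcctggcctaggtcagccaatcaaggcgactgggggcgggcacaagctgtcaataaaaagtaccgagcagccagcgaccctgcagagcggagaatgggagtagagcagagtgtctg
Oat: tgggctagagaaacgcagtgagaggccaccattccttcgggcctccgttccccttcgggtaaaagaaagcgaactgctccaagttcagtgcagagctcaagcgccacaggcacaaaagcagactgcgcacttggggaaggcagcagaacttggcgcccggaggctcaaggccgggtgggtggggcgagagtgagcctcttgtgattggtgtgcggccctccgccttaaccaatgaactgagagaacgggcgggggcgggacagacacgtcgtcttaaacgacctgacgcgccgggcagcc
Slc1a2: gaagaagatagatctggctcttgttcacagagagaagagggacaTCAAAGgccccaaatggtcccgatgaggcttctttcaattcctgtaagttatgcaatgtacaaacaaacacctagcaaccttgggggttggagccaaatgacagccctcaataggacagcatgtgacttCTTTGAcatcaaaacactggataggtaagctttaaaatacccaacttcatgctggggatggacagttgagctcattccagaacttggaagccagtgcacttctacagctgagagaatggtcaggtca
Hal: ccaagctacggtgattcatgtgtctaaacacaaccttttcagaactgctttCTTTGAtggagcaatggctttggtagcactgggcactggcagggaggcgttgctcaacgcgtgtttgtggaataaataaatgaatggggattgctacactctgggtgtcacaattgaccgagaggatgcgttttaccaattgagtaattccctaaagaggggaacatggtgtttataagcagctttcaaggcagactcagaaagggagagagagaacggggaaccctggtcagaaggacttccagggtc
Slc1a2 held CTTTGA at -206 and -77 from the start, counted to its first base (the first as its other-strand form TCAAAG), and Hal held it at -199. The windows of Glul, Oat and Axin2 held no match, and 16.0% of the 32851 promoter windows of the same length held at least 1. The letters TTCNNNGAA, the shape of a STAT site, were in none of the 5 windows and in 8.3% of all. The Slc1a2 window lies inside the annotated gene, and so belongs to an internal start. A match, or its lack, in 300 bases is a description of letters and says nothing of binding.

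Glul encodes glutamine synthetase, which fixes ammonia into glutamine in the pericentral rim. It measured 506, 343 and 534 CPM in IL-6 STAT3KO, 53.5, 77.9 and 543 CPM in IL-6, 140, 103 and 233 CPM in DDC STAT3KO, 166 and 227 CPM in DDC, and 382 and 427 CPM in GFP libraries. IL-6 replicates 1 and 2 were the lowest of all 13 libraries, IL-6 replicate 3 was the highest, and every library of both DDC groups lay below both GFP libraries. Over all libraries the log2 fold change of IL-6 over GFP was -0.85 ± 0.74 (SE; edgeR quasi-likelihood test with Benjamini-Hochberg adjustment over all genes, adjusted p = 0.430), and it did not pass. With IL-6 replicate 3 left out, Glul fell in IL-6 relative to GFP (log2 fold change -2.62 ± 0.39, adjusted p = 0.000997 by edgeR). Glul then also rose in IL-6 STAT3KO relative to IL-6 (2.82 ± 0.38, adjusted p = 0.000407), against 1.04 ± 0.68 and adjusted p = 0.292 with that library.

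Oat encodes ornithine aminotransferase, which links ornithine to glutamate in the same cells. Its levels were 615, 305 and 377 CPM in IL-6 STAT3KO, 40.7, 58.2 and 232 CPM in IL-6, 230, 252 and 437 CPM in DDC STAT3KO, 351 and 402 CPM in DDC, and 1120 and 1081 CPM in GFP libraries. Both GFP libraries were above each of the other 11, and all IL-6 libraries were below all IL-6 STAT3KO libraries. Oat fell in IL-6 relative to GFP with a log2 fold change of -3.32 ± 0.61 (edgeR adjusted p = 0.00229; -4.48 ± 0.44 without IL-6 replicate 3), and this call held whichever library was left out. It rose in IL-6 STAT3KO relative to IL-6 by 1.97 ± 0.55 (adjusted p = 0.0205), and by 3.14 ± 0.40 (adjusted p = 0.000271) without IL-6 replicate 3. That call was lost without IL-6 replicate 1 (adjusted p = 0.0654), IL-6 replicate 2 (0.0860) or IL-6 STAT3KO replicate 1 (0.0752), and in a fit of the compared groups alone (0.0585). Oat in IL-6 STAT3KO relative to GFP was -1.35 ± 0.59 and did not pass (adjusted p = 0.239).

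Slc1a2 encodes the glutamate transporter GLT-1, which supplies glutamate to pericentral cells. It measured 64.7, 36.6 and 80.2 CPM in IL-6 STAT3KO, 0.710, 0.616 and 26.9 CPM in IL-6, 22.1, 18.9 and 11.7 CPM in DDC STAT3KO, 20.6 and 32 CPM in DDC, and 70.6 and 72.9 CPM in GFP libraries. IL-6 replicates 1 and 2 held under 1 CPM, while IL-6 replicate 3 lay among the DDC libraries. The log2 fold change of IL-6 over GFP was -2.92 ± 1.04 over all libraries (edgeR adjusted p = 0.0560), and -6.75 ± 0.51 (adjusted p = 2.42e-05) without IL-6 replicate 3. For IL-6 STAT3KO over IL-6 it was 2.67 ± 0.97 (adjusted p = 0.0622), and 6.52 ± 0.50 (adjusted p = 1.31e-05) without it. No other zonation gene had as large a log2 fold change in these comparisons without that library. Its window, printed above, was the only one of the 5 with 2 core matches, and no link between the letters and the levels was tested.

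Rhbg encodes an ammonium transporter and was near the detection limit, with 6 to 65 counts summed over a group. Its levels were 1.55, 0.931 and 1.46 CPM in IL-6 STAT3KO, 0.395, 0.0616 and 0.437 CPM in IL-6, 0.532, 0.272 and 0.150 CPM in DDC STAT3KO, 0.106 and 0.178 CPM in DDC, and 0.384 and 0.275 CPM in GFP libraries. All IL-6 STAT3KO libraries were above every other library. Rhbg rose in IL-6 STAT3KO relative to IL-6 by 2.13 ± 0.65 on the log2 scale (edgeR adjusted p = 0.0295), and by 2.57 ± 0.78 (adjusted p = 0.0331) without IL-6 replicate 3. The call was lost without IL-6 replicate 1 (adjusted p = 0.0607), IL-6 replicate 2 (0.0977), IL-6 STAT3KO replicate 1 (0.0768) or IL-6 STAT3KO replicate 3 (0.0806). Relative to GFP it was 1.97 ± 0.74 higher and did not pass (adjusted p = 0.175).

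**Figure D1:**
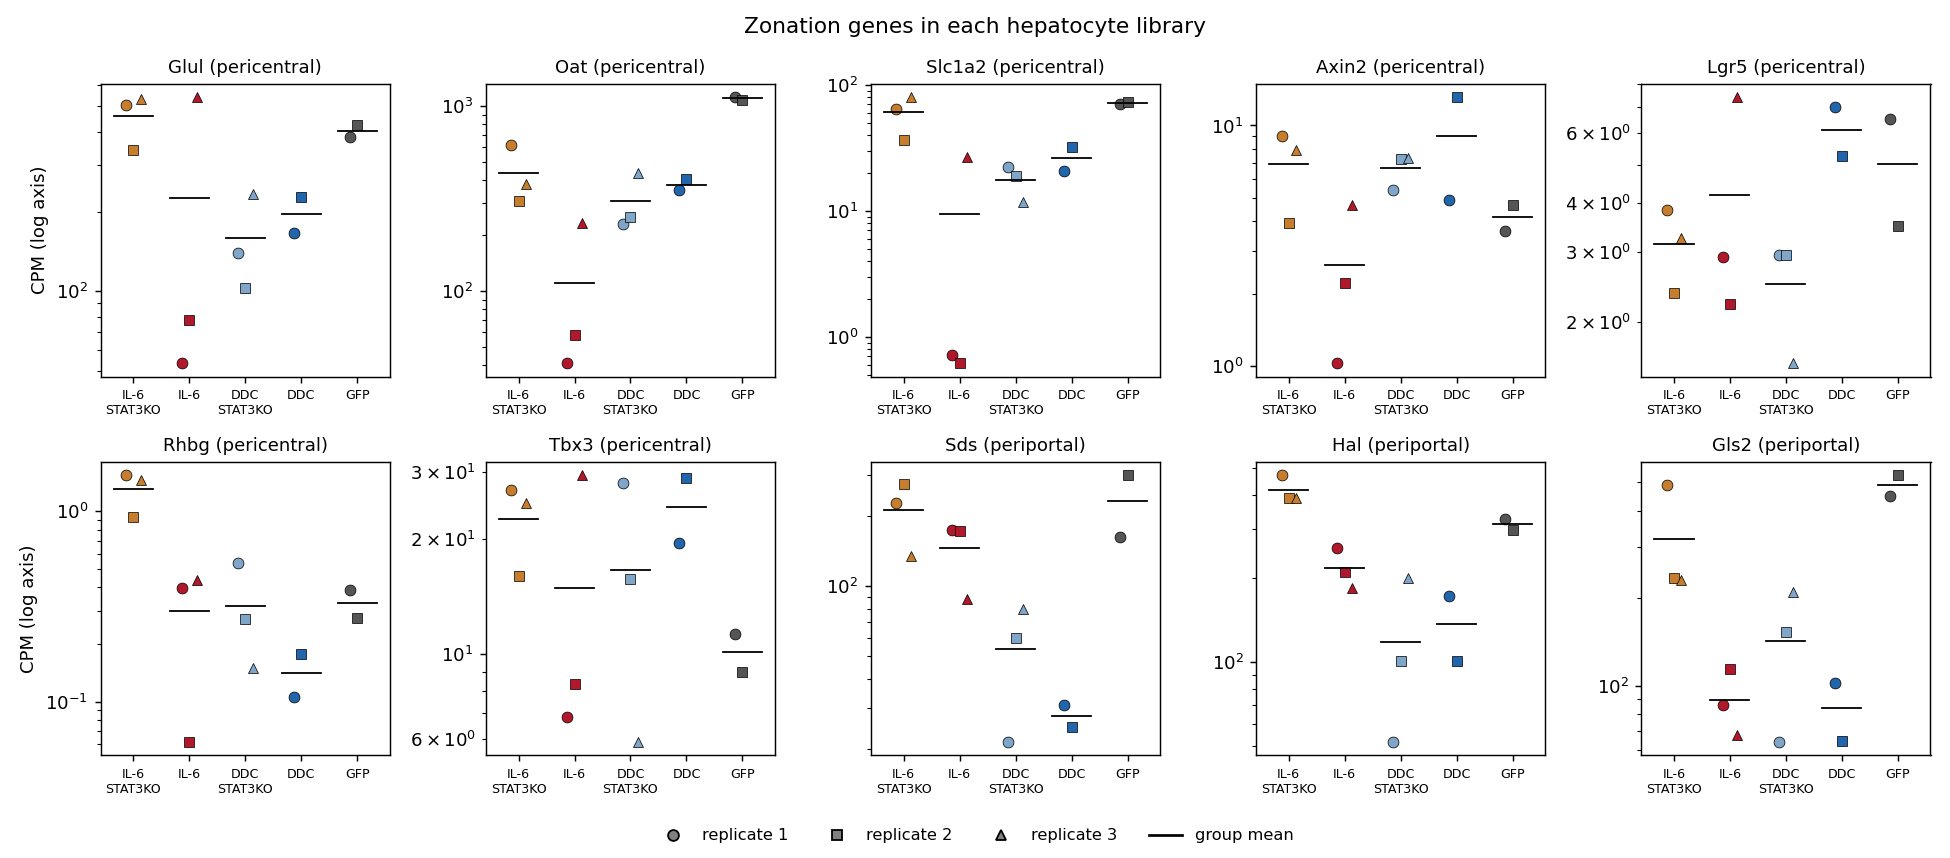
Level of each of the 10 zonation genes in CPM (y axis, log scale) in the 13 hepatocyte libraries by group (x axis), with points for libraries, shapes for replicate numbers and a line for the group mean. Glul, Oat and Slc1a2 show IL-6 replicates 1 and 2 as the lowest libraries, closest to the next for Glul, and IL-6 replicate 3 above them. Sds, Hal and Gls2 show all libraries of both DDC groups below both GFP libraries.

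Axin2, Lgr5 and Tbx3 are the Wnt pathway members among the pericentral genes. Axin2 is a scaffold of the β-catenin destruction complex and itself a Wnt target, Lgr5 is an R-spondin receptor, and Tbx3 is a T-box transcription factor. Axin2 measured 9.03, 3.91 and 7.87 CPM in IL-6 STAT3KO, 1.03, 2.22 and 4.68 CPM in IL-6, 5.37, 7.26 and 7.33 CPM in DDC STAT3KO, 4.88 and 13.1 CPM in DDC, and 3.65 and 4.68 CPM in GFP libraries. IL-6 and GFP overlapped, and so did IL-6 and IL-6 STAT3KO. Axin2 did not pass in any comparison over all libraries. It rose, once IL-6 replicate 3 was left out, in IL-6 STAT3KO relative to IL-6 (2.09 ± 0.53 log2, edgeR adjusted p = 0.0145), against 1.38 ± 0.52 and adjusted p = 0.0689 with it. Leaving out IL-6 STAT3KO replicate 2 also made it pass (1.67 log2, adjusted p = 0.0430).

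Tbx3 was 26.9, 16.0 and 24.9 CPM in IL-6 STAT3KO, 6.86, 8.38 and 29.4 CPM in IL-6, 28.1, 15.8 and 5.91 CPM in DDC STAT3KO, 19.6 and 29.0 CPM in DDC, and 11.3 and 9.01 CPM in GFP libraries. The spread within IL-6 and within DDC STAT3KO was nearly as wide as that over all 13 libraries. Its log2 fold change of IL-6 over GFP was 0.55 ± 0.65 with IL-6 replicate 3 and -0.42 ± 0.54 without it, and neither passed (edgeR adjusted p = 0.567 and 0.620). In IL-6 STAT3KO relative to IL-6 it was 0.60 ± 0.57 (adjusted p = 0.481), and without that library it rose by 1.58 ± 0.51 (adjusted p = 0.0437). Lgr5 lay between 1.57 and 7.42 CPM in all 13 libraries, with the lowest value in DDC STAT3KO and the highest in IL-6 replicate 3. It measured 2.95, 2.95 and 1.57 CPM in DDC STAT3KO libraries, against 7.0 and 5.26 CPM in DDC libraries. These groups did not overlap, yet the difference of -1.28 ± 0.50 did not pass after adjustment (unadjusted p = 0.0242, edgeR adjusted p = 0.852).

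Sds, serine dehydratase, turns serine into pyruvate for gluconeogenesis at the portal side. It measured 229, 275 and 135 CPM in IL-6 STAT3KO, 176, 173 and 88.6 CPM in IL-6, 21.5, 60.0 and 80.2 CPM in DDC STAT3KO, 30.7 and 24.9 CPM in DDC, and 164 and 301 CPM in GFP libraries. Every library of the DDC groups was below every library of the other 3 groups. Sds fell in DDC relative to GFP with a log2 fold change of -3.06 ± 0.59 (edgeR adjusted p = 0.00614), a call lost without DDC replicate 2 (adjusted p = 0.0611). It also fell in DDC STAT3KO relative to GFP, at -2.11 ± 0.49 (adjusted p = 0.0154), a call lost without GFP replicate 2 (0.139) and in a fit of those groups alone (0.0645). In IL-6 relative to GFP it was -0.67 ± 0.49 and did not pass (adjusted p = 0.337).

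Gls2, the liver glutaminase, releases ammonia from glutamine for urea synthesis. Its levels were 489, 235 and 232 CPM in IL-6 STAT3KO, 85.8, 114 and 67.7 CPM in IL-6, 64.2, 153 and 209 CPM in DDC STAT3KO, 102 and 64.6 CPM in DDC, and 449 and 529 CPM in GFP libraries. All IL-6, DDC STAT3KO and DDC libraries were below all IL-6 STAT3KO and GFP libraries. Gls2 fell in IL-6 relative to GFP with a log2 fold change of -2.46 ± 0.46 (edgeR adjusted p = 0.00248), a call that held whichever library was left out. It rose in IL-6 STAT3KO relative to IL-6 by 1.84 ± 0.42 (adjusted p = 0.00747). Without IL-6 replicate 3 these values were -2.29 ± 0.53 (adjusted p = 0.0101) and 1.69 ± 0.49 (0.0275). Gls2 fell in DDC relative to GFP, at -2.55 ± 0.53 (adjusted p = 0.00875), a call lost without DDC replicate 2 (0.0835) or GFP replicate 2 (0.0522). In DDC STAT3KO relative to GFP it fell by 1.78 ± 0.45 (adjusted p = 0.0223), and this call was lost without DDC STAT3KO replicate 2, GFP replicate 1 or GFP replicate 2 (adjusted p = 0.0520, 0.0894 and 0.123) and in a fit of those groups alone (0.0708).

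Hal, histidine ammonia-lyase, starts histidine breakdown. It measured 470, 388 and 388 CPM in IL-6 STAT3KO, 258, 210 and 184 CPM in IL-6, 51.7, 101 and 201 CPM in DDC STAT3KO, 173 and 101 CPM in DDC, and 328 and 298 CPM in GFP libraries. IL-6 libraries lay below both the GFP and the IL-6 STAT3KO libraries without overlap, but at -0.52 ± 0.42 log2 relative to GFP the difference did not pass (edgeR adjusted p = 0.393). IL-6 STAT3KO was 0.93 ± 0.39 above IL-6 and did not pass (adjusted p = 0.0973), but it did without DDC STAT3KO replicate 1 (0.0284) or DDC STAT3KO replicate 3 (0.0216) in the shared estimate of spread. Hal fell in DDC STAT3KO relative to GFP, at -1.41 ± 0.42 (adjusted p = 0.0418). That call was lost in 9 of the 13 fits that left out 1 library, with adjusted p from 0.0508 to 0.182, and in a fit of those groups alone (0.139).

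**Figure D2:**
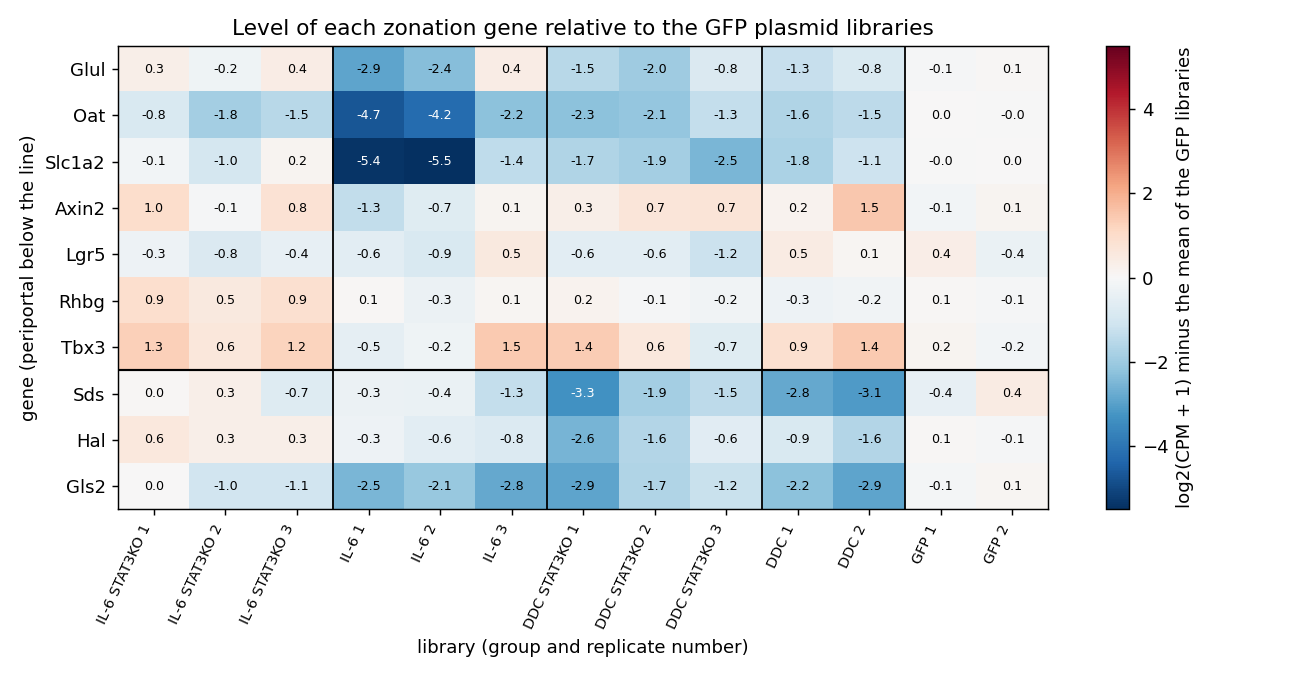
Difference of each gene's log2(CPM + 1) from the mean of the GFP libraries (colour, with the value printed to 1 decimal), with genes in rows, periportal genes below the line, and the 13 hepatocyte libraries in columns by group. IL-6 replicates 1 and 2 are at -2.89 and -2.36 for Glul and at -5.41 and -5.49 for Slc1a2, IL-6 replicate 3 is at 0.43 and -1.38, and Sds and Gls2 are below 0 in every DDC and DDC STAT3KO library.

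Between IL-6 and GFP, Oat and Gls2 were called lower and no zonation gene higher, that is 2 of 10, where edgeR called 25.9% of the 14339 tested genes (13.7% higher, 12.2% lower). The median log2 fold change of the 10 genes was -0.66, and that of all tested genes 0.04. Without IL-6 replicate 3, 4 of 10 were called lower, namely Glul, Oat, Slc1a2 and Gls2, against a background of 24.2% called (12.7% higher, 11.5% lower). Genes of both zones were among them, those that make or supply glutamate and glutamine around the central vein and the glutaminase of the portal side.

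Between IL-6 STAT3KO and IL-6, Oat, Rhbg and Gls2 were called higher, 3 of 10, where 26.4% of all genes were called (13% higher, 13.3% lower). The median of the 10 genes was 1.21 and that of all genes 0. Without IL-6 replicate 3, 7 of 10 were called higher, the exceptions being Lgr5, Sds and Hal, against 25% of genes called (12.9% higher, 12.2% lower). Between IL-6 STAT3KO and GFP, 0 of the 10 genes were called by edgeR, with 3.12% of all genes called (2.26% higher, 0.865% lower). Without IL-6 replicate 3 again 0 were called, with 3.74% of genes called (2.55% higher, 1.19% lower). Oat and Rhbg had unadjusted p of 0.0410 and 0.0208 there. DESeq2 also called 0 of the 10. A fit of those groups alone called Oat lower (adjusted p = 0.0413) and Tbx3 higher (adjusted p = 0.0450). That fit called 927 of all genes, against 448 in the fit of all libraries. These comparisons share libraries, IL-6 in the first pair and GFP with the DDC comparisons, so their results are not independent.

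**Figure D3:**
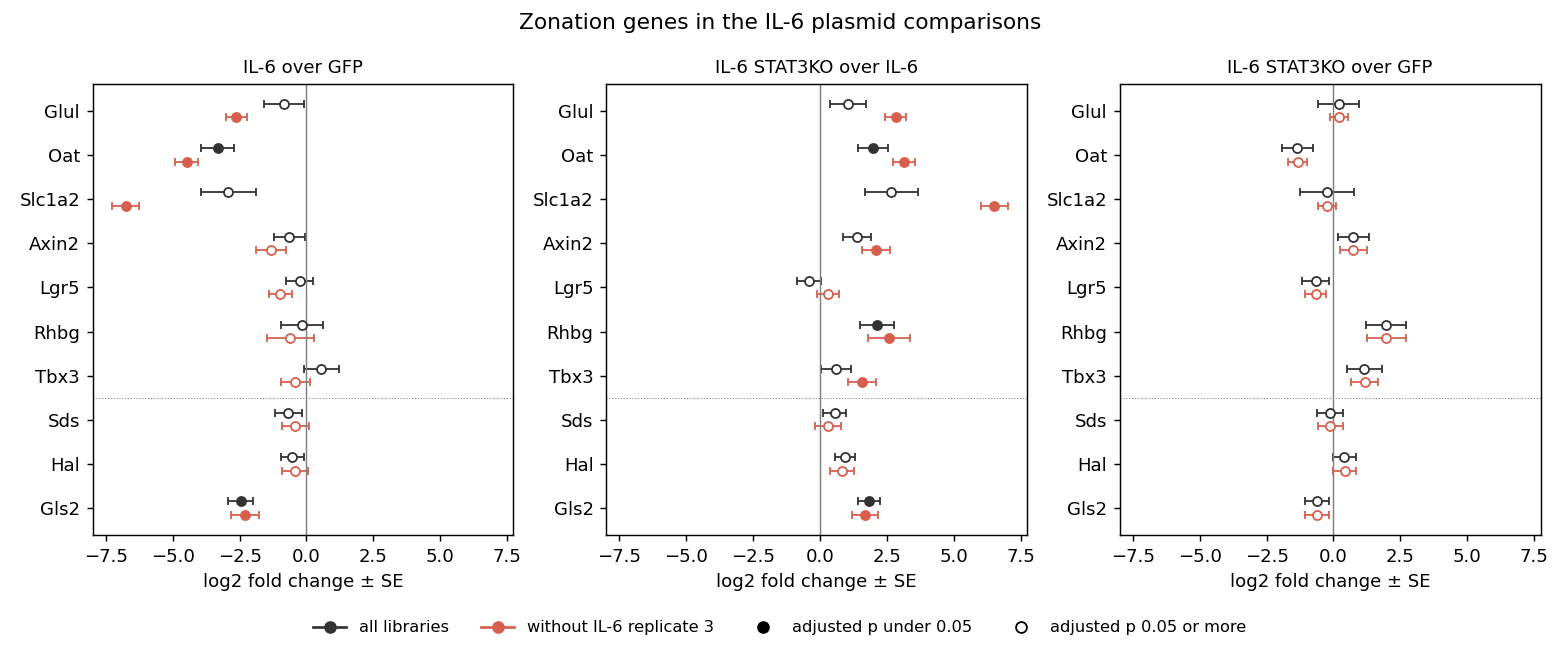
Log2 fold change with its SE (x axis) of each zonation gene (y axis) for IL-6 over GFP, IL-6 STAT3KO over IL-6 and IL-6 STAT3KO over GFP, over all libraries (dark) and without IL-6 replicate 3 (red), with filled points where the adjusted p was under 0.05. Leaving out that library took Slc1a2 to -6.75 in the first panel and 6.52 in the second, and no gene of the third panel passed either way.

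Between DDC and GFP, Sds and Gls2 were called lower and no zonation gene higher, 2 of 10, where 18.7% of all genes were called (10.4% higher, 8.29% lower). Glul, Oat and Slc1a2 had log2 fold changes of -1.04 ± 0.83, -1.55 ± 0.67 and -1.45 ± 1.13, and none of them passed (edgeR adjusted p = 0.397, 0.122 and 0.388). The wide spread of the IL-6 group enters this test through the shared estimate. Without IL-6 replicate 3, Oat (-1.56 ± 0.39, adjusted p = 0.0185) and Slc1a2 (-1.46 ± 0.37, adjusted p = 0.0195) also fell, 4 of 10 lower with Sds and Gls2, against 20.5% of genes called (11% higher, 9.5% lower). In a fit of DDC and GFP alone, 7 of 10 were called, with Tbx3 higher and Glul, Oat, Slc1a2, Sds, Hal and Gls2 lower. That fit also called more of all genes, 4415 against 2675 in the fit of all libraries.

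Between DDC STAT3KO and GFP, Sds, Hal and Gls2 were called lower, all 3 periportal genes and none of the 7 pericentral ones, where 15.9% of all genes were called (8.5% higher, 7.39% lower). Without GFP replicate 2 none of the 10 was called, and the share of all genes called in that fit is not given here. Without IL-6 replicate 3, Glul (-1.36 ± 0.33, adjusted p = 0.0190), Oat (-1.86 ± 0.34, adjusted p = 0.00572) and Slc1a2 (-2.04 ± 0.33, adjusted p = 0.00307) fell as well, 6 of 10 against 17.3% of genes called (8.88% higher, 8.42% lower). Between DDC STAT3KO and DDC, edgeR called 0 of the 10 genes and 0% of all genes, in either direction and also without IL-6 replicate 3, with 805 genes at an unadjusted p under 0.05, and DESeq2 called 15 genes, none of them a zonation gene. Lgr5 alone of the 10 had an unadjusted p under 0.05 there. A miss in this test does not show that the groups are alike: Sds was 0.95 ± 0.51 and Gls2 0.77 ± 0.47 higher in DDC STAT3KO (adjusted p = 0.852 and 0.854). Both DDC comparisons with GFP share the GFP libraries.

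**Figure D4:**
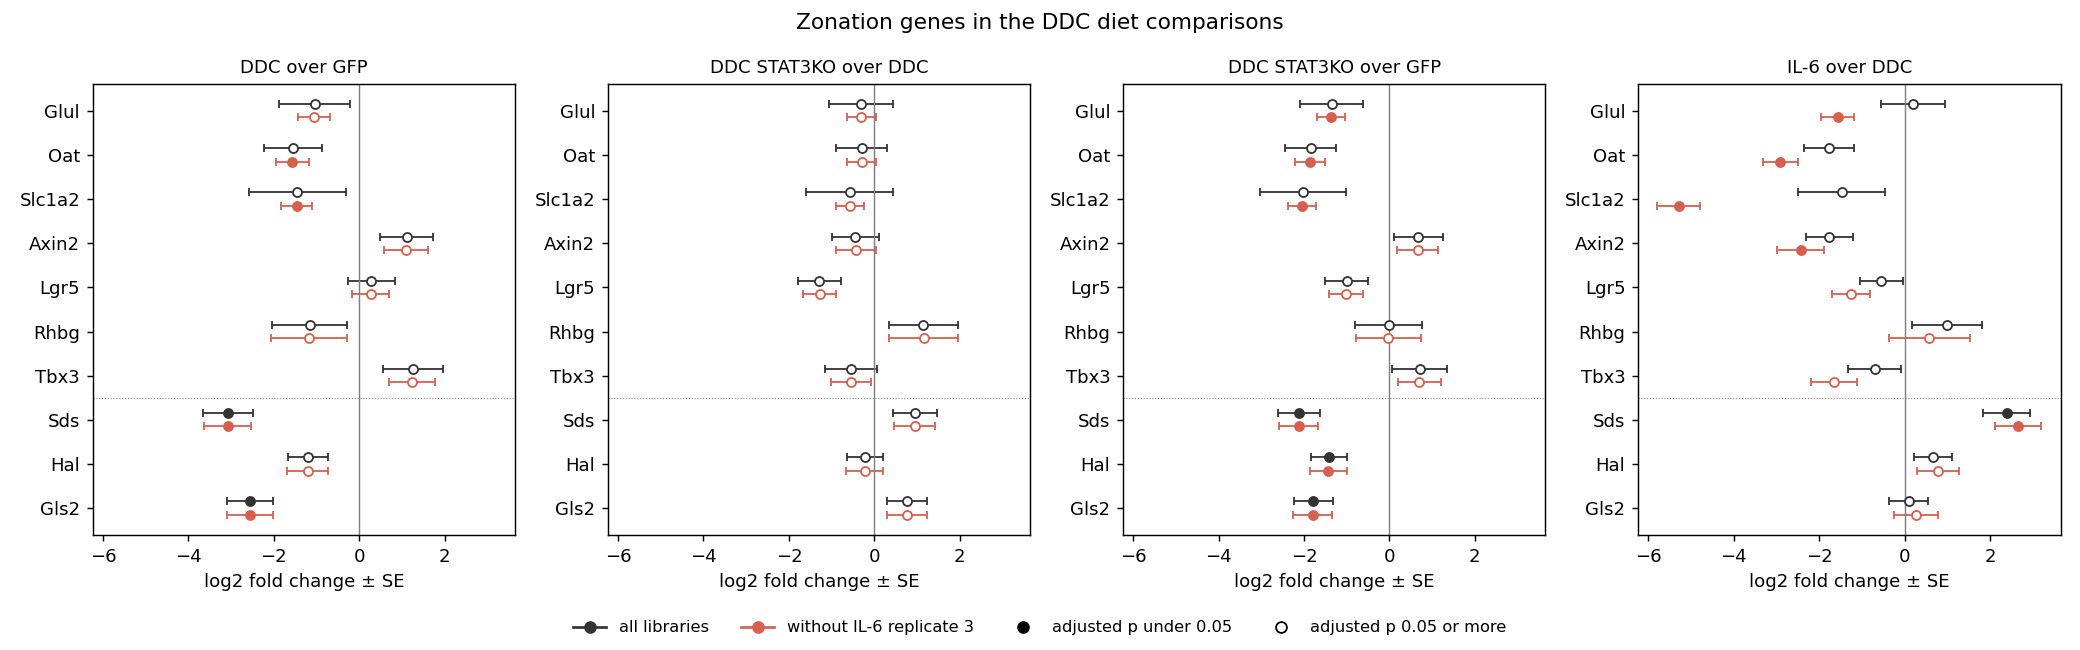
Log2 fold change with its SE (x axis) of each zonation gene (y axis) for DDC over GFP, DDC STAT3KO over DDC, DDC STAT3KO over GFP and IL-6 over DDC, drawn as in the plot of the IL-6 comparisons. Sds is at -3.06, 0.95, -2.11 and 2.39 in the panels, and the red points of Glul, Oat and Slc1a2 lie below 0 in the IL-6 over DDC panel.

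Set against DDC, the IL-6 libraries had more of a periportal gene and less of the pericentral genes Oat and Axin2, and less Glul and Slc1a2 in replicates 1 and 2. Replicate 3 was above both DDC libraries for Glul and between them for Slc1a2. Sds was higher in IL-6 than in DDC by 2.39 ± 0.54 log2 (edgeR adjusted p = 0.0150), the only one of 10 called over all libraries, where 11.6% of all genes were called (6.03% higher, 5.55% lower). That call was lost without DDC replicate 1 (adjusted p = 0.0896) or DDC replicate 2 (0.138). The Sds call stayed without IL-6 replicate 3 (2.66 ± 0.54, adjusted p = 0.0102), and Glul (-1.57 ± 0.38), Oat (-2.91 ± 0.41), Slc1a2 (-5.29 ± 0.50) and Axin2 (-2.44 ± 0.56) were lower in IL-6 than in DDC (adjusted p = 0.0220, 0.00126, 0.000111 and 0.0173), against 11.6% of genes called (6.29% higher, 5.34% lower). The difference of differences, IL-6 STAT3KO minus IL-6 less DDC STAT3KO minus DDC, called 0 of the 10 genes over all libraries (8.28% of all genes, 4.2% higher and 4.08% lower; Oat, Slc1a2 and Axin2 had an unadjusted p under 0.05, and DESeq2 called 1 of the 10). It called 4 higher without IL-6 replicate 3, against 9.72% of genes called (5.19% higher, 4.53% lower). The log2 values were 3.13 ± 0.49 for Glul, 3.44 ± 0.51 for Oat, 7.09 ± 0.58 for Slc1a2 and 2.52 ± 0.69 for Axin2 (edgeR adjusted p = 0.00322, 0.00247, 0.000128 and 0.0433). In the IL-6 arm the reference mice were wild-type without virus, and in the DDC arm Stat3-floxed with AAV-TBG-GFP. Allele and virus thus cannot be told apart from STAT3 loss in this difference.

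Levels per kilobase of exon allow the genes to be ordered against each other within a group. In GFP hepatocytes Oat led with 466 ± 11.7 CPM per kb, followed by Gls2 (141 ± 16.3), Sds (137 ± 57.1) and Glul (122 ± 9.57; SD, n = 2 each). The Sds libraries (96.8 and 177.5) spanned those of both its neighbours, while Gls2 (129.3 and 152) lay just above Glul (115 and 128) without overlap. Hal followed with 56.4 ± 3.82 CPM per kb, then Slc1a2 with 5.46 ± 0.124 and Tbx3 with 1.54 ± 0.248. Axin2 (0.756), Lgr5 (0.489) and Rhbg (0.170) were lowest, with an SD of 0.132 for Axin2 and 0.208 for Lgr5. In DDC hepatocytes Oat still led with 159 ± 15.3 CPM per kb and Glul came next with 59.1 ± 12.9, ahead of Hal (24.7), Gls2 (24.0) and Sds (16.4). IL-6 hepatocytes had Sds first with 86.1 ± 29.2 CPM per kb, Glul with 67.6 ± 83.0 and Oat with 46.7 ± 44.8 (SD, n = 3), and the SD of Glul there exceeded its mean. The places of Glul and Oat rest on IL-6 replicate 3, with 163 CPM per kb of Glul and 98.3 of Oat. In replicates 1 and 2 Glul measured 16.1 and 23.4 and Oat 17.2 and 24.7 CPM per kb, below Hal (46.5 and 37.9) and Gls2 (24.7 and 32.9), and Sds was first (103.7 and 102).

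Across the 13 libraries the pericentral Glul, Oat and Slc1a2 varied together. The Pearson correlation of log2(CPM + 1) was 0.905 between Oat and Slc1a2, 0.865 between Glul and Slc1a2 and 0.777 between Glul and Oat. All other pericentral pairs were lower, from -0.0611 for Lgr5 and Rhbg to 0.658 for Slc1a2 and Axin2. Among the periportal genes it was 0.865 between Sds and Hal, 0.724 between Hal and Gls2 and 0.709 between Sds and Gls2. Between the zones it ran from -0.45 for Tbx3 and Sds and -0.417 for Axin2 and Sds to 0.655 for Oat and Gls2, a range that overlapped that of the pericentral pairs. The points share groups and library composition, and the values are a description over 13 libraries. Of 9420 genes with a mean of 5 CPM or more, the closest in pattern to Slc1a2 were Hykk (0.969), Baat (0.948) and Optn (0.947), to Glul Lonp2 (0.941), Bace1 (0.934) and Acad11 (0.913), and to Oat Gstt2 (0.958), Gm4756 and Tet3 (0.955 each). The closest to Sds were Masp2 (0.933), Arg1 (0.932), the urea cycle arginase, and Gm15690 (0.911). Hal was followed by Slc46a3 (0.931), Nlrp6 (0.925) and Slc25a23 (0.919), and Gls2 by Luc7l2 (0.965), Cyp2d37-ps (0.955) and Azin1 (0.950). For the Wnt members the closest were Usp3 to Axin2 (0.909), Crot to Lgr5 (0.802) and 5031439G07Rik to Tbx3 (0.897). Rhbg was most like Igtp (0.932), Gm12250 (0.929) and Erap1 (0.927).

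Other zonated genes were read from lists of 28 further pericentral and 27 further periportal genes, all of them tested. In IL-6 relative to GFP, 20 of 28 pericentral genes fell and 2 rose (median log2 fold change -1.60, against 0.04 for all genes). Of the 27 periportal genes, 16 fell and 2 rose (median -1.25), where 12.2% of all tested genes were called lower and 13.7% higher. Cyp2f2, a periportal cytochrome P450, averaged 37.8 CPM in IL-6 and 926 CPM in GFP libraries (-4.61 ± 0.36, edgeR adjusted p = 1.39e-05), and Otc, a urea cycle enzyme, averaged 112 CPM in IL-6 and 623 CPM in GFP libraries (-2.48 ± 0.26, adjusted p = 7.3e-05). Pon1, a pericentral paraoxonase, averaged 48.7 CPM in IL-6 and 836 CPM in GFP libraries (-4.10 ± 0.43, adjusted p = 7.18e-05). IL-6 replicate 3 did not stand apart for Cyp2f2, which measured 41.7, 34.1 and 37.7 CPM in the IL-6 libraries, replicate 3 included, against 955 and 898 CPM in GFP libraries. Slc13a3, a dicarboxylate transporter of the pericentral list, rose (2.56 ± 0.30, adjusted p = 0.000154). Leaving out IL-6 replicate 3, 22 pericentral and 14 periportal genes fell, where 11.5% of all genes were called lower. Leaving out GFP replicate 2 lowered the periportal calls to 12. The number of all genes called was also lowest in that fit, so this drop does not set the list apart.

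In IL-6 STAT3KO relative to IL-6, 16 pericentral genes rose and 2 fell (median 1.39, against 0 for all genes). Of the periportal genes, 17 rose and 2 fell (median 1.17), where 13% of all tested genes were called higher and 13.3% lower. Leaving out IL-6 replicate 3, 20 pericentral genes rose and 1 fell (median 1.86), and 14 periportal genes rose and 2 fell (median 1.10). Of all genes, 12.9% were then called higher and 12.2% lower. Cyp2a5, a pericentral cytochrome P450, averaged 3639 CPM in IL-6 STAT3KO and 25.7 CPM in IL-6 libraries (7.14 ± 0.74, edgeR adjusted p = 4.08e-05), and Cyp2f2 averaged 1173 CPM in IL-6 STAT3KO and 37.8 CPM in IL-6 libraries (4.95 ± 0.36). Avpr1a, a vasopressin receptor, fell by 3.71 ± 0.28 (6.27 CPM in IL-6 STAT3KO, 82.3 CPM in IL-6). Of all tested genes, 3.12% were called in IL-6 STAT3KO relative to GFP. In IL-6 STAT3KO relative to GFP, 3 pericentral and 1 periportal gene were called, and 1 pericentral gene was left without either GFP replicate. The pericentral Gstm3, a glutathione transferase, was called over all libraries at 4.15 ± 0.72 higher (adjusted p = 0.00827) but not without either GFP replicate (adjusted p = 0.110 and 0.150). In DDC relative to GFP, 13 of 27 periportal genes fell and 1 rose (median -1.41), while 3 of 28 pericentral genes fell and 1 rose (median -0.44). Of all tested genes, 8.29% were called lower and 10.4% higher there, and 9.5% lower without IL-6 replicate 3. The pericentral share called was thus near that of all genes. Leaving out DDC replicate 2 left 2 periportal calls, leaving out DDC replicate 1, DDC replicate 2 or GFP replicate 1 left 1 pericentral call, and leaving out IL-6 replicate 3 gave 7 pericentral genes lower. Uox, urate oxidase of the periportal list, fell by 2.01 ± 0.32 (651 CPM in DDC, 2614 CPM in GFP, adjusted p = 0.00264). In DDC STAT3KO relative to GFP, where 7.39% of all tested genes were called lower and 8.5% higher, 10 periportal genes fell and 1 rose. Of the pericentral genes, 6 fell and 2 rose. Those calls dropped to 2 periportal genes without GFP replicate 2 and to 2 pericentral genes without GFP replicate 1. The number of all genes called also changed with the library left out, so such drops do not set the lists apart. In DDC STAT3KO relative to DDC edgeR called none of either list and 0% of all genes.

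The Wnt pathway itself was read from lists of its ligands, receptors, destruction complex, transcription factors and feedback targets. In IL-6 relative to GFP, Notum, a secreted Wnt deacylase and pericentral feedback target, measured 1.18, 2.22 and 1.81 CPM in IL-6 and 22.8 and 17.1 CPM in GFP libraries. Tnfrsf19, another Wnt target, measured 0.710, 0.493 and 0.436 CPM in IL-6 and 5.5 and 3.16 CPM in GFP libraries. IL-6 replicate 3 was as low as the other IL-6 libraries in both genes, although it was high in Glul. Both fell, with log2 fold changes of -3.51 ± 0.49 (edgeR adjusted p = 0.000419) and -2.99 ± 0.50 (adjusted p = 0.00137), and were 2 of the 8 tested feedback targets, where 25.9% of all genes were called. In IL-6 STAT3KO relative to IL-6 they rose by 2.55 ± 0.46 and 2.53 ± 0.47 (adjusted p = 0.00170 and 0.00215), and 4 of 8 feedback targets rose and none fell, where 26.4% of all genes were called. Under DDC, Notum measured 12.7, 11.8 and 14.1 CPM in DDC STAT3KO and 15.1 and 11.3 CPM in DDC libraries. It was not called in DDC relative to GFP, where 18.7% of all genes were called. Ccnd1, cyclin D1, was the only feedback target called in DDC relative to GFP (3.14 ± 0.62, adjusted p = 0.00692), a call lost without either GFP library (0.0541 and 0.0714).

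Among the receptors, Fzd4 measured 49.1, 28.9 and 39.5 CPM in IL-6 STAT3KO, 10.3, 11.6 and 11.7 CPM in IL-6 and 28.0 and 24.8 CPM in GFP libraries. It fell in IL-6 relative to GFP, at -1.23 ± 0.24 (edgeR adjusted p = 0.00313) and rose in IL-6 STAT3KO relative to IL-6 by 1.80 ± 0.22 (adjusted p = 0.000138). Lgr4, the hepatocyte R-spondin receptor, measured 35.8, 34.4 and 42.6 CPM in DDC STAT3KO, 37.0 and 43.0 CPM in DDC and 87.7 and 91.5 CPM in GFP libraries. Lgr4 fell in DDC (-1.16 ± 0.18, adjusted p = 0.00222) and in DDC STAT3KO (-1.25 ± 0.16, adjusted p = 0.000869), both relative to GFP, and was higher in IL-6 than in DDC by 0.94 ± 0.17 (adjusted p = 0.00367; 0.0611 without DDC replicate 1 and 0.0579 with unscaled library totals). Lrp5, a Wnt co-receptor, rose in IL-6 by 0.79 ± 0.21 relative to GFP (adjusted p = 0.0151; 0.182 without GFP replicate 2). Lrp5 also rose in DDC (0.81 ± 0.22, edgeR adjusted p = 0.0275) and in DDC STAT3KO (0.82 ± 0.21, adjusted p = 0.0212), both relative to GFP. It was lower in IL-6 STAT3KO than in IL-6 (-0.86 ± 0.18, adjusted p = 0.00457). Of the 10 tested receptors, 2 were called higher and 2 lower in IL-6 relative to GFP, where 25.9% of all genes were called. Of 8 tested ligands and secretion factors, Wnt5a alone was called in IL-6 relative to GFP (1.22 ± 0.36, adjusted p = 0.0266; not without either GFP replicate, IL-6 replicate 1 or IL-6 replicate 2). None of the 9 tested β-catenin and TCF transcription factors was called by edgeR in any of the 8 comparisons over all libraries. The share of all genes called in them ran from 0% (DDC STAT3KO relative to DDC) to 26.4% (IL-6 STAT3KO relative to IL-6). Without IL-6 replicate 3, 1 factor was called in IL-6 STAT3KO relative to IL-6 (25% of all genes) and 1 in IL-6 relative to DDC (11.6%). Ctnnb1, β-catenin itself, was picked after its values were seen and lay between 171 and 265 CPM in all 13 libraries.

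**Figure D5:**
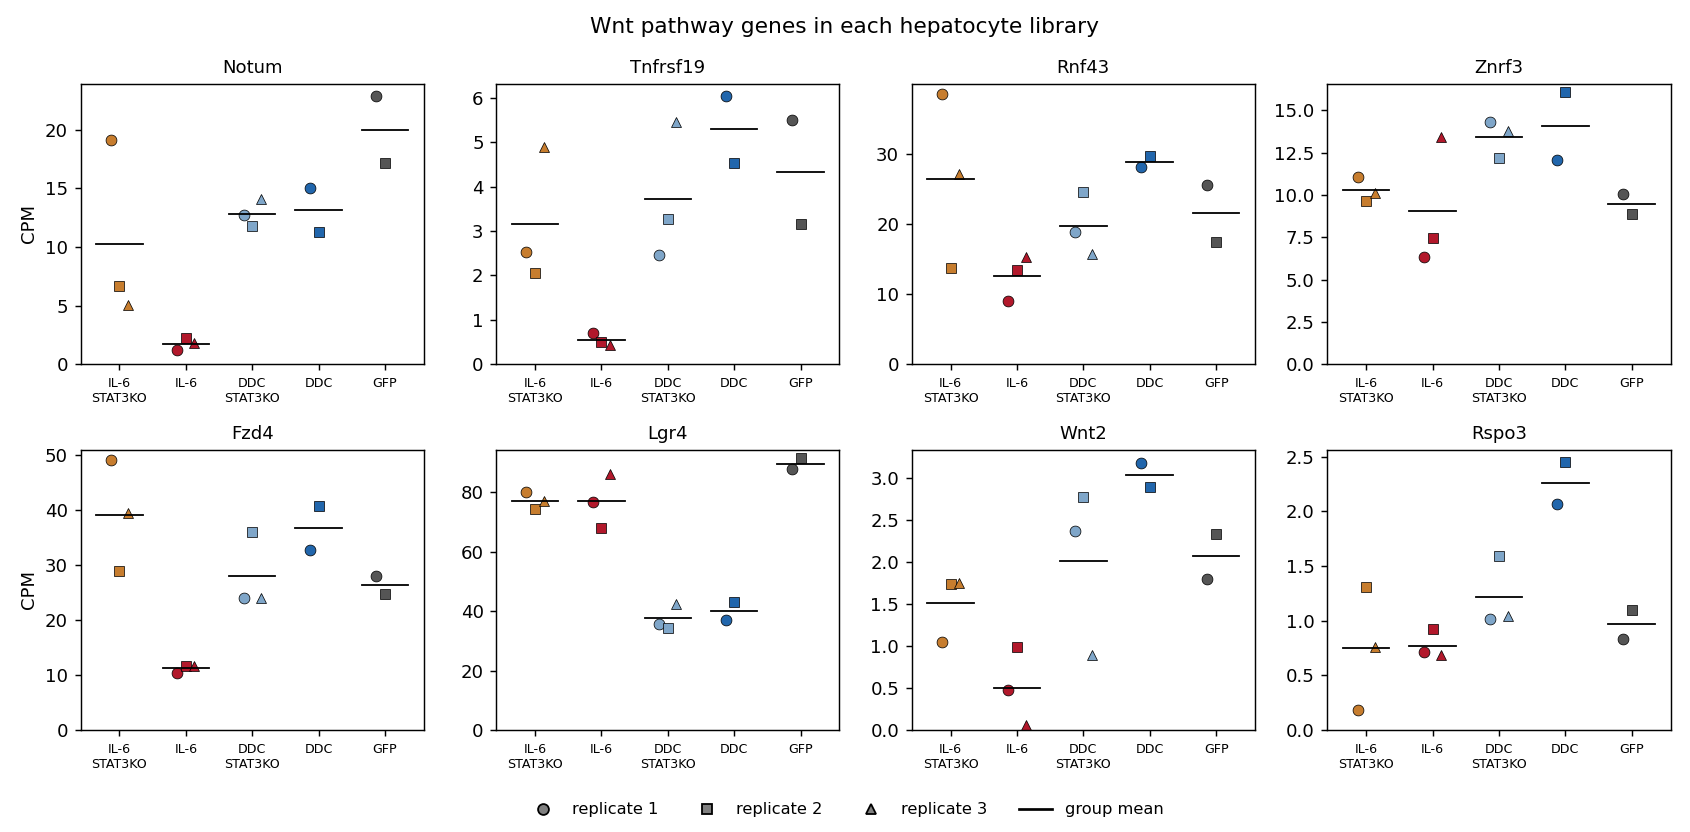
Level of 8 Wnt pathway genes in CPM (y axis, from 0) in each hepatocyte library by group (x axis), with shapes for replicate numbers and a line for the group mean. All IL-6 libraries are lowest for Notum, Tnfrsf19 and Fzd4, and all libraries of both DDC groups are lowest for Lgr4.

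Genes around the same reactions were counted next. Of 19 tested glutamine and ammonia genes, 7 fell and 5 rose in IL-6 relative to GFP, where 25.9% of all tested genes were called over all libraries. These 12 calls became 7 without either GFP replicate. Aldh18a1, which makes proline and ornithine precursors from glutamate, averaged 17.2 CPM in IL-6 and 0.135 CPM in GFP libraries, which held 1 and 3 counts (6.93 ± 0.68, edgeR adjusted p = 4.8e-05), while Prodh, which breaks proline down, averaged 42.8 CPM in IL-6 and 251 CPM in GFP libraries (-2.56 ± 0.29, adjusted p = 0.000123). In IL-6 STAT3KO relative to IL-6, where 26.4% of all genes were called, 8 rose and 3 fell, with Prodh higher (2.49 ± 0.28) and Aldh18a1 lower (-3.49 ± 0.43). In DDC relative to GFP, where 18.7% of all genes were called, 5 fell and 3 rose. These 8 calls became 3 without DDC replicate 2 or GFP replicate 2. Of 11 serine and histidine genes, 4 fell and 4 rose in IL-6 relative to GFP, 5 of the 8 calls being left without GFP replicate 2, with Psat1, an enzyme of serine synthesis, at 31.1 CPM in IL-6 and 0.462 CPM in GFP libraries (6.05 ± 0.80, adjusted p = 0.000290). Amdhd1, which follows Hal in histidine breakdown, fell by 1.60 ± 0.28 (adjusted p = 0.00177). In DDC relative to GFP, 3 rose and 2 fell, with Shmt1 and Ftcd as those that fell. Without DDC replicate 2 or GFP replicate 2 these 5 calls became 2, and Ftcd was not called without DDC replicate 2 (adjusted p = 0.0578). The number of all genes called also changed with the library left out, so the drops do not set these lists apart.

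Other cell types moved with some of these differences. Summed Kupffer cell markers, all 8 measured and none at 0, reached 52.0 to 391 CPM in DDC STAT3KO, 271 to 435 CPM in DDC and 27.3 to 33.8 CPM in GFP libraries. All 8 were called higher in DDC and in DDC STAT3KO than in GFP, where 10.4% and 8.5% of all genes were called higher. They summed to 107 to 251 CPM in IL-6 STAT3KO and 71.2 to 161.5 CPM in IL-6 libraries. In IL-6 relative to GFP 4 of 8 were called higher, where 13.7% of all genes were called higher. Summed endothelial markers were 150.7 to 268 CPM in IL-6 STAT3KO, 56.9 to 215 CPM in IL-6, lowest in replicate 3, and 196 to 228 CPM in GFP libraries. None of these 8 was called in any comparison, where 0% to 26.4% of all genes were called. Stellate cell markers summed to 236 to 396 CPM in DDC and 76.2 to 86.3 CPM in GFP libraries, and 1 of 7 was called higher in DDC than in GFP. The cholangiocyte sum was 20.6 to 29.5 CPM in IL-6 and 5.43 to 13.7 CPM in GFP libraries, and the neutrophil sum at most 9.78 CPM. All 3 tested cholangiocyte markers and 2 of 3 tested neutrophil markers were called higher in IL-6 than in GFP. None of the 6 T cell markers was in the hepatocyte table. The part of these cells in the zonation results was not tested.

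The zonation genes also had counts in the 12 immune libraries, a separate table read here as levels. Glul measured 272 and 409 CPM in macrophages of DDC-fed mice, against 117 and 124 CPM in macrophages of normal livers, and Oat measured 222 and 180 CPM in DDC macrophages, against 55.3 and 67.9 CPM in normal macrophages. Hal was highest in Ly6C-high monocytes of DDC-fed mice (34.4 and 44.2 CPM). Axin2, Tbx3 and Rhbg were at or below 4.68 CPM in all 12 libraries. Alb, a hepatocyte gene, measured 911 and 108 CPM in DDC macrophages and 102 and 130 CPM in normal macrophages, and the part of hepatocyte RNA in these levels was not tested.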

How the data were processed

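Libraries of liver cells sorted by flow cytometry were prepared with the Illumina TruSeq RNA kit, per the labels' protocols. The authors deposited whole-number counts per gene, and per the submitters' processing notes STAR, HTSeq and DESeq2 were used with build mm10, without versions. Every gene of the hepatocyte table had at least 10 counts in all. From these deposited counts, R 4.3.3 with edgeR 4.0.16 was used here: the EGFP entry entered neither library sizes nor tests, filterByExpr left 14339 of 18668 genes, TMM factors were applied, and 1 quasi-likelihood fit held all 13 hepatocyte libraries in 5 groups (common biological variation 0.313 as a coefficient, 8 residual degrees of freedom). P-values were Benjamini-Hochberg adjusted over all tested genes and called under 0.05. CPM use TMM-scaled library sizes. SE is the log2 fold change divided by the square root of F. The procedure was tested on simulated data. The members and lists were chosen with earlier results of these data known. Beside the members and Stat3, Il6 and Socs3, up to 3 called genes with the smallest adjusted p per list and comparison could be named, and for each member the 3 genes closest in pattern. Alternatives were other scaling, no filter, a replicate block, fits of the compared groups alone, DESeq2 1.42.0 and leaving out libraries; those for list genes and list counts, and list counts without IL-6 replicate 3, were added after seeing the data. The 12 immune libraries were read as CPM only.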

Additional observations from a re-analysis of the deposited data

Results flagged for a closer look

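The difference of differences, IL-6 STAT3KO minus IL-6 less DDC STAT3KO minus DDC, was itself tested by edgeR. The naming rule takes up to 3 called genes per list, so the 15 further genes named here passed by selection, and the rule limits their number. Of 28 other pericentral genes, 8 were called higher and 1 lower. Of 27 other periportal genes, 7 were called higher and 2 lower. The share called of all tested genes was 8.28% (4.2% higher, 4.08% lower). As the reference mice of the arms of this difference differed in allele and virus, these cannot be told apart from STAT3 loss in it. Higher under it were the pericentral Gstm3 (log2 value 8.25) and Cyp2a5 (6.21), the periportal Etnppl (7.55), Cyp2f2 (4.78) and Igfals (1.88), the Wnt pathway genes Tnfrsf19 (3.04), Notum (2.58) and Fzd4 (2.19), and Prodh (2.17), Slc38a4 (1.77), Slc25a13 (1.37) and Shmt1 (1.26). Lower under it were Psat1 (-3.90), Avpr1a (-2.82) and Sdsl (-1.63). Of these, the Notum call was lost without DDC replicate 1, DDC replicate 2, DDC STAT3KO replicate 1 or IL-6 replicate 1, and the Tnfrsf19 call without DDC replicate 1 (adjusted p = 0.0573), while those of Fzd4, Cyp2f2 and Gstm3 held in each fit that left out 1 library.

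EGFP, counted in the table and kept out of the comparisons, was above the 2.18 and 2.41 CPM of the GFP libraries in several others. It measured 9.23, 5.73 and 486 CPM in IL-6 replicates 1, 2 and 3, and 1185 and 1228 CPM in DDC replicates 1 and 2.

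In the immune libraries, 4 zonation genes were higher in both macrophage libraries of DDC-fed mice than in both of normal livers. Glul averaged 341 CPM in DDC macrophages and 121 CPM in normal macrophages, and Oat averaged 201 CPM in DDC and 61.6 CPM in normal macrophages. Hal averaged 13.4 CPM in DDC and 5.47 CPM in normal macrophages, and Sds 4.52 CPM in DDC and 0.0379 CPM in normal macrophages (n = 2 each). Axin2, Lgr5 and Tbx3 went the other way, lower in both DDC than in both normal macrophage libraries. They averaged 0.0615, 1.03 and 0.184 CPM in DDC and 2.90, 7.07 and 1.77 CPM in normal macrophages. The share of all genes separated like this was not counted, and these differences were not tested. Groups of 2 or 3 libraries are too small for a check of single outlying samples.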

How the results depend on the processing

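Low counts limit the precision of Rhbg (1 to 25 counts per library) and, in the lowest libraries, of Slc1a2 (9 counts), Axin2 (13) and Lgr5 (21). The spread within the IL-6 group and groups of 2 or 3 libraries also limit the tests. Over all alternatives and comparisons, member values kept direction and side of the threshold in 1453 fits, passed anew in 84, no longer passed in 29 and turned sign in 29. For the other named genes these numbers were 2273, 18, 148 and 1. The cause of each change below was not tested.

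With unscaled library totals the median log2 change of all genes moved to -0.18 (IL-6 over GFP), 0.23 (IL-6 STAT3KO over IL-6), 0.26 (DDC over GFP), 0.24 (DDC STAT3KO over GFP), -0.46 (IL-6 over DDC) and 0.27 (difference of differences). The split into higher and lower calls, with TMM scaling in brackets, became 1387 and 2661 [1964 and 1755], 2789 and 1278 [1866 and 1914], 1980 and 726 [1487 and 1188], 1672 and 721 [1219 and 1059], 522 and 3075 [865 and 796], and 1011 and 345 [602 and 585] in the same order. IL-6 over DDC then had 3597 genes and 3 members called, IL-6 STAT3KO over IL-6 had 5 members called, and Glul (-0.24) and Gls2 (-0.35) in IL-6 over DDC and Rhbg (0.18) in DDC STAT3KO over GFP turned sign.

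Of 23 same-number pairs of libraries, 9 had a correlation of deviations over 0.1, in a range of -0.224 to 0.216. Pairs of different replicate numbers were not read beside them, so whether the numbers pair the libraries was not tested. With the replicate number as a block, members called became 4 (IL-6 over GFP), 6 (IL-6 STAT3KO over IL-6), 5 (DDC STAT3KO over GFP), 3 (IL-6 over DDC) and 1 (difference of differences). These counts are given without the share of all genes called under the block, and so do not set the members apart. Glul in IL-6 STAT3KO over GFP (-0.24) and in IL-6 over DDC (-0.91), and Stat3 in IL-6 STAT3KO over GFP (-0.038), turned sign under the block.

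Fits of the compared groups alone called 927 genes and 2 members in IL-6 STAT3KO over GFP, 4415 genes and 7 members in DDC over GFP, and 795 genes in DDC STAT3KO over GFP. DESeq2 called 1146 genes in IL-6 STAT3KO over GFP, 15 in DDC STAT3KO over DDC, 3 members in IL-6 over DDC, and 1881 genes and 1 member in the difference of differences. For IL-6 over DDC the genes called by DESeq2 are not given, so these 3 do not set the members apart. Leaving out IL-6 replicate 3 and DDC STAT3KO replicate 3 together gave 4, 7, 2, 7, 7, 6 and 6 members called in IL-6 over GFP, IL-6 STAT3KO over IL-6, IL-6 STAT3KO over GFP, DDC over GFP, DDC STAT3KO over GFP, IL-6 over DDC and the difference of differences. It gave 1175, 4061, 3873 and 2163 genes in IL-6 STAT3KO over GFP, DDC over GFP, DDC STAT3KO over GFP and the difference of differences. For the other comparisons in that fit the genes called are not given, so their member counts do not set the members apart. Tbx3 in IL-6 over GFP (-0.42), Lgr5 in IL-6 STAT3KO over IL-6 (0.31), Rhbg in DDC STAT3KO over GFP (0.26) and Glul in IL-6 over DDC (-1.56) turned sign there.

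Leaving out 1 library at a time, genes called ranged over 1651 to 4430 in IL-6 over GFP (lowest without GFP replicate 2), 2541 to 4333 in IL-6 STAT3KO over IL-6, 89 to 854 in IL-6 STAT3KO over GFP (without GFP replicate 1), 607 to 3514 in DDC over GFP (without GFP replicate 2), 0 to 1 in DDC STAT3KO over DDC, 482 to 3431 in DDC STAT3KO over GFP (without GFP replicate 1), and 608 to 2235 in IL-6 over DDC and 459 to 1611 in the difference of differences (both without DDC replicate 2). Members called ranged over 2 to 4, 1 to 7, 0 to 0, 0 to 4, 0 to 0, 0 to 6, 0 to 5 and 0 to 4 in the same order. Log2 values that crossed 0 were those of Lgr5 (-0.97 to 0.26), Rhbg (-0.60 to 0.34) and Tbx3 (-0.42 to 0.90) in IL-6 over GFP, Lgr5 in IL-6 STAT3KO over IL-6 (-0.72 to 0.31), Slc1a2 (-0.50 to 0.016) and Sds (-0.49 to 0.39) in IL-6 STAT3KO over GFP, Lgr5 in DDC over GFP (-0.10 to 0.79), Axin2 (-0.98 to 0.44) and Hal (-0.84 to 0.22) in DDC STAT3KO over DDC, Rhbg in DDC STAT3KO over GFP (-0.58 to 0.27), and Glul (-1.57 to 0.67) and Gls2 (-0.22 to 0.46) in IL-6 over DDC. Called genes of the other pericentral and periportal lists ranged over 18 to 24 and 12 to 20 in IL-6 over GFP, 13 to 23 and 13 to 20 in IL-6 STAT3KO over IL-6, and 1 to 9 and 2 to 17 in DDC over GFP.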
